A study of Mus musculus with 4 samples.

Results

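The Forkhead genes encode transcription factors that share a winged-helix DNA-binding domain, and they were taken here as every gene whose symbol is Fox followed by 1 letter and a number. The array held 44 probe sets that named 1 such gene each, and with the probe set of the highest mean standing for a gene this gave 41 Forkhead genes among 18820 genes measured. Foxm1 and Foxp3 had no probe set that named them alone and were not analysed here. Metanephric kidneys of mouse embryos at about 14 days of gestation were kept in organ culture for about 10 days, digested to single cells and sorted by flow cytometry. All of them were B6.129P2-Lgr5tm1(cre/ERT2)Cle/J mice, a knock-in in which the Lgr5 locus drives EGFP and a tamoxifen-inducible Cre, so both sorted groups share that allele and no kidney without it was analysed here. The groups were 2 arrays of cells with high GFP (kidneys A and B by title) and 2 arrays of cells without GFP, called GFP-negative (titled kidney B and kidney D). The labels do not say whether a letter stands for 1 animal or a pool, so a p-value reflects the spread among these 4 arrays alone, and that spread may be technical.

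Most Forkhead factors bind DNA as monomers, and several members of the family open closed chromatin or act downstream of growth factor and Hedgehog signals. In the developing kidney Foxd1 marks the progenitors of the stroma, Foxc1 and Foxc2 act in the mesenchyme from which kidney and ureter form, Foxc2 continues in podocytes, and Foxi1 sets the identity of acid-secreting intercalated cells. FoxO factors are held in the cytoplasm by insulin and growth factor signals through the kinase Akt.

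The comparison asks which genes distinguish the Lgr5-reporter cells from cells without reporter. Values are log2 expression levels, and a difference is always GFP-high minus GFP-negative. Tests are limma's moderated test with Benjamini-Hochberg adjustment over all 18820 genes at 0.05. Lgr5 itself, the check of the sort, read 10.43 and 10.34 in GFP-high and 6.39 and 6.31 in GFP-negative cells. The groups also differed in markers of cell types. The marker lists were chosen with earlier results of these data known, so their counts are a description and no independent test. Among all genes 8.08% were higher and 11.2% lower. All 7 markers of the thick ascending limb were higher in GFP-high cells, while 8 of 8 nephron progenitor, 9 of 9 stromal, 4 of 4 podocyte, 6 of 6 proximal tubule and 6 of 7 endothelial markers were lower. Of 7 leukocyte markers, 1 was lower (Cd68, a gene of macrophages, which did not pass with any array left out) and 6 did not pass. Of 7 ureteric bud and collecting duct markers 4 were higher, and of 4 intercalated cell markers 1. With 1 array left out the number called was 0 to 3 for podocytes, 2 to 6 for endothelium, 1 to 3 for ureteric bud and collecting duct and 0 to 1 for intercalated cells. The background line below is the 95th percentile of the mean levels of 979 olfactory receptor genes, at 4.23.

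Of the 41 Forkhead genes 2 were higher in GFP-high cells (Foxc1 and Foxk1) and 9 lower (Foxc2, Foxd1, Foxd2, Foxf1, Foxl1, Foxp2, Foxn3, Foxo1 and Foxo3), and 30 did not pass. The 11 called genes are 26.8% of the family, against 19.2% of all genes called. For the higher direction the share was 4.88% against 8.08% of all genes, and for the lower direction 22% against 11.2%. With a difference of at least 2-fold required as well, 7 Forkhead genes passed (8.77% of all genes did), 1 of them higher (2.7% of all genes) and 6 lower (6.07% of all genes). The median difference was -0.06 over the Forkhead genes and 0.05 over all genes, and with arrays centred on their medians both lay above 0, at 0.04 and 0.15. These shares describe 41 genes and were not tested. The count fell from 11 to 4 when the kidney A GFP-high array was left out, to 5 for kidney B GFP-high, to 6 for kidney B GFP-negative and to 7 for kidney D GFP-negative. Each of these fits has only 1 residual degree of freedom. Foxc2, Foxd2, Foxl1 and Foxp2 passed in all 4 of them.

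**Figure D1:**
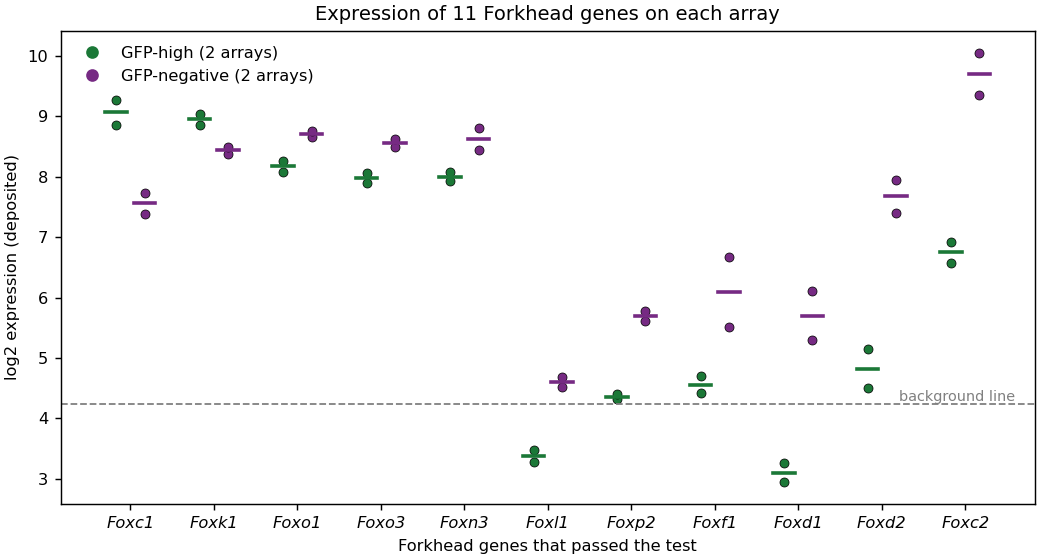
Deposited log2 expression (vertical axis) of the 11 Forkhead genes that passed, with a point for each of the 2 GFP-high and 2 GFP-negative arrays and a bar for each group's mean. The groups do not overlap in any of the 11 genes, which were picked by the test, nor in 57.3% of all genes. The GFP-high arrays of Foxd1 and Foxl1 lie below the background line at 4.23.

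Promoter sequence was matched by symbol for 27 of the 41 genes and for 6 of the 11 called ones (RefSeq, GRCm38.p6). Shown are the 250 bases upstream of the start for 5 of these 6: Foxc1, which was higher, Foxd1 and Foxd2, which were lower and belong to 1 subfamily, and Foxo1 and Foxo3, the FoxO pair that was lower. Capitals mark the CCAAT box (CCAAT) and the GC box (GGGCGG) on either strand.
Foxc1, chr13:31806396-31806645, plus strand: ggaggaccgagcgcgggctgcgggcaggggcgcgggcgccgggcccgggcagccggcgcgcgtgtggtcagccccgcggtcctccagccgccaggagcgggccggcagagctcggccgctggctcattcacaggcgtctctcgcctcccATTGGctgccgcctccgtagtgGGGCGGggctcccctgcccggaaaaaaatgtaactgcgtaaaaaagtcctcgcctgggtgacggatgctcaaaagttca
Foxd1, chr13:98353995-98354244, plus strand: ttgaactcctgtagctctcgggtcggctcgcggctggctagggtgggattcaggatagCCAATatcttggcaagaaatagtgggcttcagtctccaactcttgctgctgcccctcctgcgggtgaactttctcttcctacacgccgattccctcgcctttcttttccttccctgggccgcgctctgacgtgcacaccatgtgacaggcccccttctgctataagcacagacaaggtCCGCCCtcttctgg
Foxd2, chr4:114908899-114909148, minus strand: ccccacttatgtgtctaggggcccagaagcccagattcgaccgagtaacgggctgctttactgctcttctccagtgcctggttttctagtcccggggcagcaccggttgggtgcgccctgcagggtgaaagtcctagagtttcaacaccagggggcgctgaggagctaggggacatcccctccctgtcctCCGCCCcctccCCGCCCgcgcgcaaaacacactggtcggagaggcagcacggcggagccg
Foxo1, chr3:52268087-52268336, plus strand: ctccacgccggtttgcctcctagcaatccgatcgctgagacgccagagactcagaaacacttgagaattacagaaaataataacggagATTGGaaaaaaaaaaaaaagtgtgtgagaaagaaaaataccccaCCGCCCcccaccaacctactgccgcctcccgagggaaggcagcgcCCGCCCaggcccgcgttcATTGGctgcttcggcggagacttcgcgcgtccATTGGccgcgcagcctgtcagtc
Foxo3, chr10:42276696-42276945, minus strand: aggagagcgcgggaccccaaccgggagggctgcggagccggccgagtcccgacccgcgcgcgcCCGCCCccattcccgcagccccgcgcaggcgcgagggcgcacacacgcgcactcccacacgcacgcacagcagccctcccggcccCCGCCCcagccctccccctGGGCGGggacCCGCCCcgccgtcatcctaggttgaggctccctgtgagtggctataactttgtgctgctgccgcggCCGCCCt
The Foxc1 window holds 1 CCAAT box and 1 GC box, as does that of Foxd1, while the Foxd2 window holds 2 GC boxes and no CCAAT box. Foxo1 has 3 CCAAT boxes and 2 GC boxes, and Foxo3 has 5 GC boxes and no CCAAT box, so both FoxO genes that fell differ in these elements. The TATA box (TATAAA) is in none of the 5. The window of Foxn3, the called gene not shown, holds none of these 3 elements, at a GC content of 52.4%. Over the 31 windows of the 27 genes a GC box was present in 74.2%, against 32.7% of all 32851 windows of the table, and a CCAAT box in 41.9% against 33.8%. The median GC content was 62.8% in the Forkhead windows and 52.4% in all windows. The forkhead element GTAAACA, to which FoxO and other family members bind, was in 1 of the 31 windows (3.23%, that of Foxa1) against 3.17% of all windows, and the Gli site TGGGTGGTC in 0 of 31 against 0.225%. These matches describe letters in a short window.

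Most of the differences past 2-fold were in the forkheads of stroma and mesenchyme, where 5 of 9 genes were lower, 1 was higher and 3 did not pass. Among all genes 11.2% were lower and 8.08% higher. Foxd1, which marks the progenitors of the kidney stroma, read 2.94 and 3.26 in GFP-high cells and 6.11 and 5.29 in GFP-negative cells. Both GFP-high arrays lie below the background line, so the measured difference of -2.60 (SE 0.260, adjusted p = 0.000458) has no level of its own on that side. Set against the line in place of the GFP-high mean, Foxd1 was at least 2.77-fold lower. Its adjusted p was 0.0756 without kidney A GFP-high and 0.058 without kidney B GFP-high.

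Foxd2, its relative in the embryonic mesenchyme, read 4.50 and 5.14 against 7.94 and 7.40. The GFP-high arrays were 7.21-fold lower (difference -2.85, SE 0.251, adjusted p = 0.000252), still above the line. With 1 array left out its difference stayed between -3.17 and -2.53, and it passed each time. Foxd3 of the neural crest, counted here with the neural genes, was below the line on every array, at 3.10 and 3.17 against 3.05 and 3.09, as was Foxd4.

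The paralogs Foxc1 and Foxc2, which have overlapping roles in mesoderm, went opposite ways. Foxc1 read 9.27 and 8.86 in GFP-high cells and 7.74 and 7.38 in GFP-negative cells, 2.84-fold higher (difference 1.51, SE 0.187, adjusted p = 0.0013). Foxc2 read 6.57 and 6.92 against 10.05 and 9.35, a 7.73-fold lower level (difference -2.95, SE 0.239, adjusted p = 0.000169). The groups do not overlap in either of these 2 genes, as in 57.3% of all genes. The value of Foxc1 minus that of Foxc2 was 2.70 and 1.94 in the GFP-high pair and -2.31 and -1.97 in the GFP-negative pair, a change of 4.46. Only that change is read, since levels of different probe sets are not comparable. This pair was chosen after its values were seen, and the change is a description. An exact permutation over the 6 splits of the arrays gave a two-sided p of 0.333. So few splits cannot give a small p, so nothing is drawn from it. The call of Foxc2 held with each array left out, while that of Foxc1 was lost without kidney A GFP-high (adjusted p = 0.07).

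Foxf1, a Hedgehog-responsive gene of mesenchyme around epithelia, read 4.70 and 4.42 in GFP-high cells and 6.68 and 5.52 in GFP-negative cells. Its difference of -1.54 (SE 0.337, adjusted p = 0.0177) comes with the widest spread of the 11 genes, with an SD of 0.817 in GFP-negative cells. It was not called without kidney A GFP-high (adjusted p = 0.218) or kidney B GFP-high (0.248), nor without kidney B GFP-negative (0.0663). Without kidney B GFP-negative the difference was nearest to 0, at -0.96, and without kidney D GFP-negative farthest, at -2.12. Foxl1, known from mesenchyme beneath the gut epithelium, read 3.49 and 3.28 against 4.69 and 4.52, a difference of -1.22 (SE 0.137, adjusted p = 0.000802). Its GFP-high arrays were below the background line and its GFP-negative mean of 4.61 only just above, which leaves a bound of at least 1.3-fold. Foxf2 (3.75 against 3.93), the pericyte gene Foxs1 (3.98 against 4.18) and the ovarian and eyelid gene Foxl2 (3.70 in both groups) did not pass. Foxs1 crossed the line on 1 GFP-negative array.

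Markers of stroma, podocytes and endothelium were lower in GFP-high cells, and so were those of nephron progenitors and proximal tubule. Of these 9 genes 5 were lower too, but not Foxc1, which was higher, nor Foxf2, Foxs1 and Foxl2, which did not pass. The summed linear level of the 9 stromal markers was 1270 to 2036 on the GFP-high and 11664 to 13186 on the GFP-negative arrays. The 4 measured podocyte markers summed to 117 to 285 against 1004 to 2051, and the 7 endothelial markers to 130 to 132 against 488 to 684. For the 8 nephron progenitor markers the sums were 448 to 566 against 5877 to 6157. For the 6 proximal tubule markers they were 287 to 316 against 2269 to 3409. None of the stromal markers was below the background line in GFP-high cells. Below it were 1 podocyte, 3 endothelial, 2 nephron progenitor and 1 proximal tubule marker. The part of these cell types in the Forkhead values was not tested, and in sorted pools fewer cells of a type and less RNA per cell cannot be told apart.

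The same 41 genes hold 3 groups of neighbours, defined here as Forkhead genes less than 250 kb apart in the RefSeq table. On chromosome 8 Foxf1, Foxc2 and Foxl1 lie together, and all 3 were lower, where 11.2% of all genes were. Mthfsd, a metabolic enzyme gene between Foxf1 and Foxc2, read 7.10 against 7.31 and did not pass. Irf8, the next protein-coding gene on the Foxf1 side and a factor of myeloid cells, was lower at 4.72 against 5.81 (adjusted p = 0.00159). On the Foxl1 side 1700018B08Rik, at 4.09 in both groups, did not pass. On chromosome 13 Foxc1 was the only called member of the trio Foxq1, Foxf2 and Foxc1, and Gmds, the gene after Foxc1, was also higher, at 7.94 against 7.28 (adjusted p = 0.0277). Hus1b, on the Foxq1 side of that trio, read 4.25 against 4.32 and did not pass. On chromosome 4 Foxd2 was lower while its neighbour Foxe3 stayed near the line, at 4.10 against 4.06. The flanking genes there, Trabd2b (9.10 against 8.85) and Cmpk1 (8.76 against 8.49), did not pass.

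**Figure D2:**
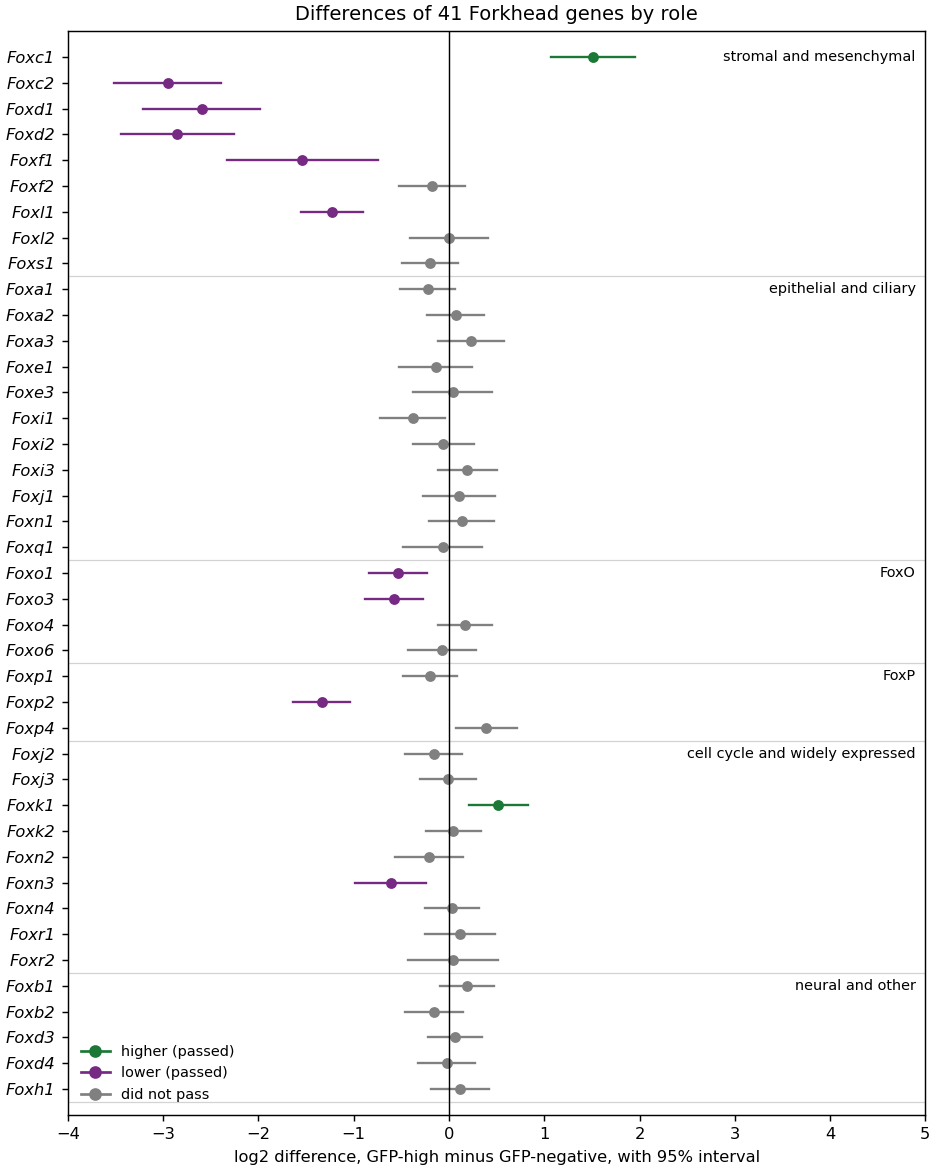
Log2 difference, GFP-high minus GFP-negative (horizontal axis), with the 95% interval of the moderated fit for each of the 41 Forkhead genes, grouped by role. Differences past 1 in size are found among the stromal and mesenchymal genes and in Foxp2. No gene of the epithelial and ciliary or the neural group passed, where 19.2% of all genes did.

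The Hedgehog list, of a pathway upstream of Foxf1, Foxf2 and Foxl1, holds ligand, receptor, coreceptor and transcription factor genes as well as targets. It had 5 of 13 measured members lower (11.2% of all genes were), 0 higher and 8 not passing, with a median difference of -0.42. The count is therefore no measure of the pathway's response. Gli1, a direct target of the pathway, was 4.05-fold lower at 4.74 against 6.76, and the transcription factor gene Gli2 was 3.52-fold lower. The coreceptor genes Gas1 and Boc were 3.15-fold and 2.76-fold lower, and the receptor gene Ptch1 was lower at 8.34 against 9.15. Gli1, Gli2 and Gas1 passed with each array left out. Boc did not without kidney A GFP-high (adjusted p = 0.0702) or kidney B GFP-high (0.0508). Without either of those arrays 3 of the 13 were called. The ligand genes Shh, at 3.68 against 4.10, and Dhh lay below the background line, while Ihh was above it on every array, at 4.66 against 4.49, and did not pass.

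Among the epithelial and ciliary forkheads 0 of 11 passed, where 19.2% of all genes were called. At unadjusted p under 0.05 only Foxi1 did. Foxi1, the regulator of intercalated cells, read 4.22 and 3.90 in GFP-high cells and 4.43 and 4.45 in GFP-negative cells. All 4 arrays lie close to the background line, and the difference of -0.38 (95% interval -0.73 to -0.04) had adjusted p = 0.127. Foxa1, a pioneer factor of endoderm and duct epithelia, read 4.69 and 4.56 against 4.83 and 4.87 (adjusted p = 0.287), and its relative Foxa2 read 4.66 and 4.49 against 4.53 and 4.47. Foxq1, a gene of secretory epithelia, stood at 5.15 against 5.21 with a difference of -0.07 (95% interval -0.48 to 0.35), and its second probe set, at 3.90 to 4.10 and so below the line on every array, did not pass either. Foxi3 had non-overlapping groups, as did 57.3% of all genes, at 4.89 and 4.72 against 4.55 and 4.67, with adjusted p = 0.397. Foxj1, the switch for motile cilia, was at 4.32 against 4.21. Foxa3 of the liver and Foxn1 of the thymus were below the line on every array, and the thyroid gene Foxe1, the lens gene Foxe3 and Foxi2 lay around it, so for these 5 no level could be told from background.

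The lists tied to Foxi1 and Foxj1, which do not hold targets alone, gave a mixed picture. Of 12 measured Foxi1 target and intercalated cell genes, 3 were higher, 1 lower and 8 not passing, with a median difference of 0.03. Among all genes 8.08% were higher and 11.2% lower. Atp6v1b1, a proton pump subunit, was 2.22-fold higher at 6.43 against 5.28, the receptor tyrosine kinase gene Kit 1.92-fold and the ammonium transporter gene Rhbg 1.77-fold higher, and the carbonic anhydrase gene Car2 2.04-fold lower. Slc4a1 and Slc26a4, the chloride-bicarbonate exchangers that define the acid- and base-secreting types, were at 4.23 against 4.03 and at 3.21 in both groups, near or below the background line. None of the 4 called genes passed with every array left out in turn. Of the 4, 0 passed without kidney A GFP-high and 1 without kidney B GFP-high. Of 22 motile cilia genes linked to Foxj1, 1 was higher, the transcription factor gene Myb (2.32-fold, at 7.74 against 6.52, also passing with each array left out), 0 were lower, and 13 were below the line on every array.

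Of 4 measured FoxO genes, Foxo1 and Foxo3 were lower in GFP-high cells by a small amount, where 11.2% of all genes were lower. The other 2 did not pass. Foxo1 read 8.26 and 8.08 against 8.66 and 8.75 (1.45-fold lower, difference -0.53, SE 0.130, adjusted p = 0.0274). Foxo3 read 8.06 and 7.90 against 8.49 and 8.62 (1.49-fold lower, difference -0.58, SE 0.130, adjusted p = 0.0199). The groups do not overlap in either gene, as in 57.3% of all genes. Neither passed with each array centred on its median (adjusted p = 0.0757 and 0.0524), nor with any 1 array left out (0.0997 to 0.197 for Foxo1 and 0.1 to 0.169 for Foxo3). Foxo4, on the X chromosome, read 6.98 and 7.04 against 6.81 and 6.88, a difference of 0.16 (95% interval -0.12 to 0.45) that did not pass. Foxo6, a gene mainly of the brain, lay around the line at 4.03 against 4.10.

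Of 19 measured kinases, receptors and other genes that control FoxO 3 were higher, 2 lower and 14 did not pass, where 19.2% of all genes were called, with a median difference of 0.00. Sgk1, a kinase that phosphorylates FoxO3 and is induced by aldosterone, was 4.07-fold lower at 4.80 against 6.82, and Irs1, an adaptor of the insulin receptor, 2.26-fold lower at 6.73 against 7.90. Both passed with each array left out. Sgk3, a relative of Sgk1, was 1.74-fold higher and Pik3cb, a catalytic subunit of PI3-kinase, 1.41-fold higher, and neither passed with any 1 array left out (adjusted p 0.0542 to 0.0637 and 0.117 to 0.208). Pik3cb did not pass with an intensity trend in the fit either (adjusted p = 0.0544). Without any 1 array the count of this list was 2. Akt1 (10.11 against 10.13) and Insr (8.30 against 8.25) did not pass.

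Of 24 genes known as FoxO targets 3 were higher, 3 lower and 18 did not pass, where 19.2% of all genes were called. The median difference of the list was -0.02 (0.08 with arrays centred on their medians). Bcl2l11, which encodes the death-promoting protein Bim, was 2.58-fold lower at 7.42 against 8.79. The stress gene Sesn1 was 1.88-fold lower and the ubiquitin ligase gene Fbxo32 1.85-fold lower. In the other direction the repressor gene Bcl6 was 2.11-fold higher, with the cell cycle inhibitor gene Cdkn1b at 10.02 against 9.57 and Tnfsf10 also called. Without kidney A GFP-high 0 of the 24 were called, with adjusted p = 0.0522 for Bcl2l11 and 0.0632 for Bcl6, and without kidney B GFP-high 2 were. With 1 GFP-negative array left out 3 (kidney B) and 4 (kidney D) were called. Sesn1 and Fbxo32 passed only without kidney D GFP-negative.

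**Figure D3:**
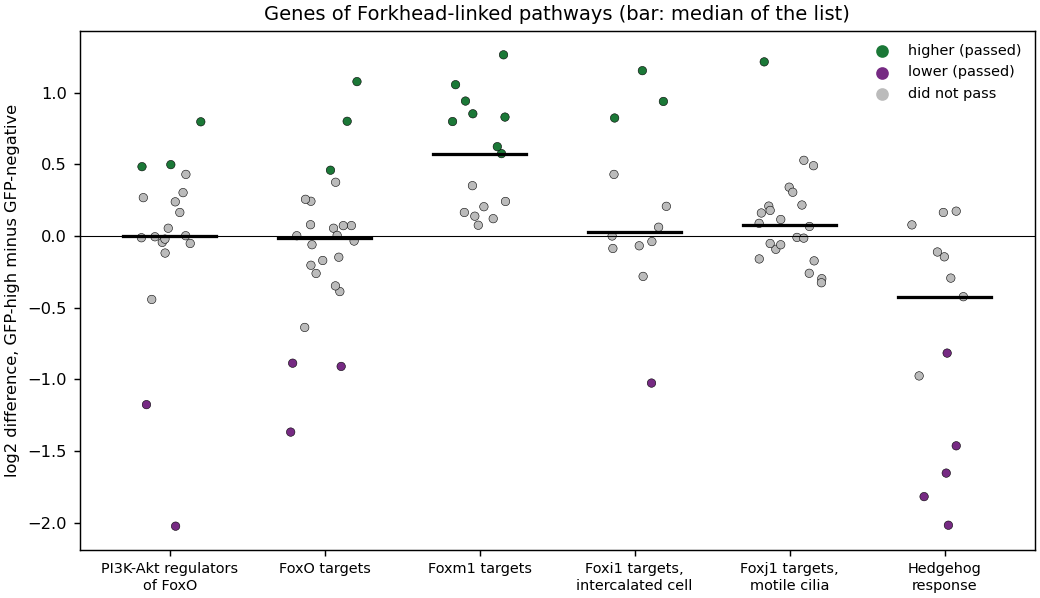
Log2 difference, GFP-high minus GFP-negative (vertical axis), of each measured gene of 6 lists tied to Forkhead factors, with a bar at each list's median. The Foxm1 target list has 8 of 15 genes higher and 0 lower, and the Hedgehog list 5 of 13 lower and 0 higher. Among all genes 8.08% were higher and 11.2% lower.

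In the FoxP subfamily of repressors 1 of 3 measured genes passed, where 19.2% of all genes were called. Foxp2, best known from the brain and lung epithelium, read 4.31 and 4.41 in GFP-high cells and 5.77 and 5.62 in GFP-negative cells. The GFP-high arrays lie just above the background line, and the difference of -1.33 (SE 0.127, adjusted p = 0.000361) passed with each array left out. Foxp1, a widely expressed member, read 8.89 and 8.99 against 9.12 and 9.15, a difference of -0.20 (95% interval -0.48 to 0.09) that did not pass. Foxp4 read 8.29 and 8.26 against 8.01 and 7.76, with groups that do not overlap and adjusted p = 0.0991. Non-overlapping groups were common in these data, with 57.3% of all genes and 63.4% of the Forkhead genes (33.2% and 22% in the higher direction, 24% and 41.5% in the lower).

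Of the 9 forkheads with wide expression or a role in the cell cycle, 1 was higher, 1 lower and 7 did not pass. The share of all genes called was 19.2%. Foxk1, a repressor linked to metabolism and autophagy, read 8.86 and 9.04 against 8.37 and 8.50 (1.43-fold higher, difference 0.52, SE 0.132, adjusted p = 0.0325). Its second probe set lay below the background line, at 3.62 and 3.91 against 3.54 and 3.66, and with the mean of both probe sets the gene did not pass (adjusted p = 0.14). Foxn3, a checkpoint suppressor, read 8.08 and 7.92 against 8.80 and 8.43 (1.53-fold lower, difference -0.61, SE 0.158, adjusted p = 0.0343). Its second probe set read 7.34 and 7.33 against 7.63 and 7.42 and did not pass, and the mean of both gave adjusted p = 0.101. Foxn3 did not pass with each array centred on its median either (adjusted p = 0.0651). Neither gene passed with any 1 array left out (adjusted p 0.112 to 0.227 for Foxk1 and 0.0657 to 0.239 for Foxn3).

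The relatives of these genes did not pass. Foxk2 read 9.17 and 9.07 against 9.04 and 9.12, with overlapping groups and a 95% interval of the difference from -0.24 to 0.34. Foxj3 read 8.91 and 9.02 against 9.02 and 8.93 (95% interval -0.30 to 0.28), and Foxj2 read 8.52 and 8.66 against 8.82 and 8.69 (95% interval -0.46 to 0.14). These intervals still allow a difference of up to 0.46 in size. Foxn2 stood at 6.64 against 6.85 and did not pass. The retinal gene Foxn4 and the rarely expressed Foxr1 and Foxr2 were below the line on every array, as were the neural genes Foxb1, Foxb2 and the Nodal partner Foxh1. None of the 5 genes grouped as neural or other passed, where 19.2% of all genes did, and none had an unadjusted p under 0.05.

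Foxm1, the forkhead that drives mitotic genes, was not analysed here. Its target list had 8 of 15 measured genes higher, 0 lower and 7 not passing, where 8.08% of all genes were higher. The median difference of the list was 0.57. The phosphatase gene Cdc25b was 2.40-fold higher at 8.66 against 7.40, the kinetochore gene Cenpf 2.08-fold, the centrosome kinase gene Nek2 1.92-fold and the topoisomerase gene Top2a 1.81-fold higher. Plk1, Cdc20, Ccna2 and Aurkb made up the rest, while Birc5 (6.58 against 6.44) and Cenpa did not pass. Cdc25b passed with each array left out. Cenpf passed only without kidney D GFP-negative and Nek2 only without kidney A GFP-high, and Top2a did not pass with any array left out (adjusted p 0.0508 to 0.166). With the mean of its probe sets the difference of Top2a was 0.39 in place of 0.85 and did not pass (adjusted p = 0.0653). The count of 8 fell to 2 without kidney A GFP-high, to 1 without kidney B GFP-high, to 1 without kidney B GFP-negative and to 4 without kidney D GFP-negative.

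**Figure D4:**
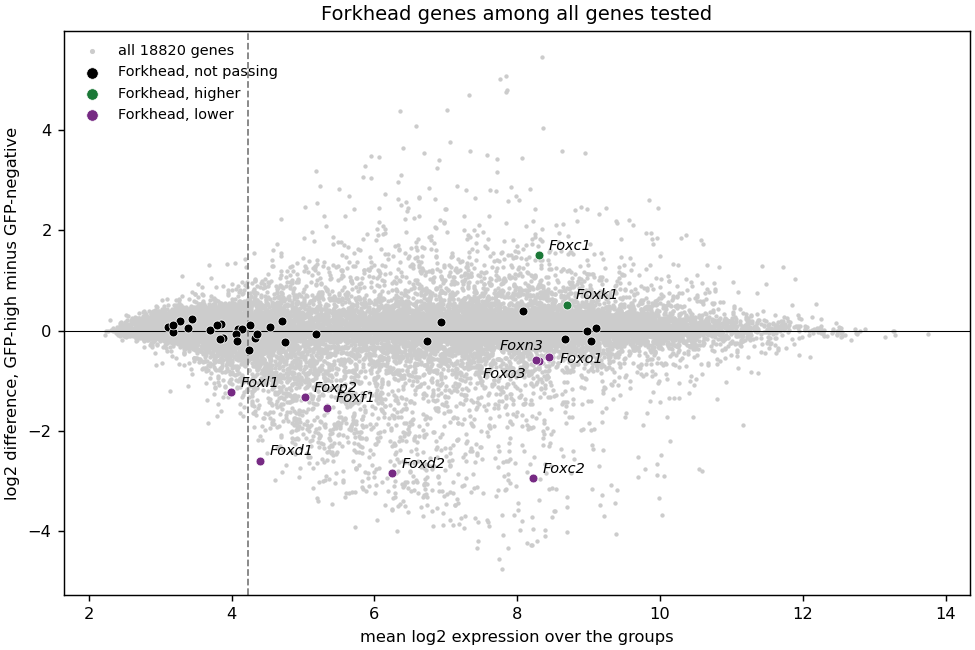
Log2 difference, GFP-high minus GFP-negative (vertical axis), against the mean log2 expression over the groups (horizontal axis) for all 18820 genes in grey and the 41 Forkhead genes in colour, with the background line at 4.23 dashed. The 20 Forkhead genes above the line on all 4 arrays hold both increases and most decreases, and many of the genes that did not pass sit at or left of the line.

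In all, 20 of the 41 genes were above the background line on every array, 12 were at or below it on every array and 9 crossed it. For the 12 the arrays give no level apart from background.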

How the data were processed

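RNA of sorted cells was labelled with biotin by a whole-transcript kit and hybridised to Affymetrix arrays, per the labels' protocols. The log2 expression values were used as the authors deposited them. The sources used here do not give how they were background-corrected, summarised or scaled. No column of values was left unused (0), and array data have no read depth.

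Of 35556 probe sets, 21218 named 1 gene by the platform annotation, 1881 several and 12457 were unnamed here. For 1386 genes with several probe sets the one with the highest mean was used. Tests used lmFit and eBayes of limma 3.58.1 (R 4.3.3) over all 18820 genes, with group as the only term, 2 residual degrees of freedom and a prior of 5.11, and were tested on simulated data. Intervals are at 95%, and an adjusted p below 0.05 passed. "At least" folds set the GFP-negative mean against the background line.

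Array values are given for each Forkhead gene that passed and for the 6 with the highest means that did not, and from each list up to 4 passing genes by size of the difference. Further genes named were chosen after their values were seen. Members, lists and promoters were chosen with earlier results of these data known. Alternatives were 2 kinds of block, median centring, quantile normalization, filters at the background line and the 25th percentile, other handling of probe sets, an intensity trend and leaving out each array.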

Additional observations from a re-analysis of the deposited data

How the results depend on the processing

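With 1 array left out, the number of all genes called ranged from 1123 to 1749 against 3620, and that of Forkhead genes from 4 to 7 against 11. In the other alternatives both counts stayed within 1.5 times, from 2959 to 4102 for all genes and from 8 to 11 for Forkhead genes, and 0 further Forkhead genes were called under any of the 13 settings run. Centring arrays on their medians moved the split of calls from 1520 higher and 2100 lower to 2122 and 1889, and that of Forkhead genes from 2 and 9 to 2 and 6. The array numbers share no stated origin, and deviations of same-numbered arrays correlated at -0.20 over genes. With the number as a replicate block 8 Forkhead genes were called (2959 of all genes), since Foxk1, Foxo1 and Foxo3 missed the threshold (adjusted p = 0.0589, 0.0679 and 0.0536). The crossed pairing puts the arrays of kidney B together and joins kidney A GFP-high to kidney D GFP-negative. It called 11 (4102 of all genes). Kidneys A and D carry different letters, so it is no block by kidney. Differences near 0 changed sign without passing: Foxj3 (-0.01) was 0.0863 with median centring and -0.0626 to 0.0423 with 1 array left out (0.0346 without kidney B GFP-negative), and Foxk2 (0.05) was -0.0054 to 0.0975 with 1 array left out. The cause of these shifts was not tested. Low signal limits the genes at the background line.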
